A study of Homo sapiens with 4 samples.

Results

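The zinc finger genes of chromosome 19 were taken as the genes of that chromosome whose symbol is ZNF followed by digits only, which gave 241 genes, 240 of them annotated as protein-coding. They were set beside the other 1206 protein-coding genes of chromosome 19, so that 1447 genes were described in all. A member counted as carrying an IGF2BP2 peak when the deposited lists gave a sense-strand peak to the Ensembl identifier tied to it by position. The peak could lie in coding sequence (CDS), untranslated region (UTR), noncoding exon or intron. Of the 241 members, 141 had such a sense peak in at least 1 library and 100 had none under an identifier that could be tied to them. Of these 100, 9 were candidates of an identifier with a sense peak that could not be tied to a single gene. The whole series held sense peaks for 20428 identifiers, of which 1154 lay on chromosome 19.

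The peaks came from iRIP-seq, in which RNA is crosslinked to protein by UV light, pulled down with an antibody and sequenced. All samples were Jurkat cells, an established human T-ALL line, with no genetic change or treatment given in the labels. There were 2 IGF2BP2_IP libraries, made with anti-IGF2BP2, and 2 IGF2BP2_input libraries, which were not analysed here. The study speaks of independent iRIP experiments, but the labels do not say whether separate cultures were used, so their spread may be technical, and a single cell line stands for the disease.

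IGF2BP2 is an mRNA-binding protein and m6A reader, known for binding coding sequence and 3′ UTRs and for stabilising the transcripts it binds. ZNF genes of chromosome 19 mostly encode KRAB zinc finger proteins, in which a KRAB domain recruits the corepressor TRIM28 and an array of C2H2 fingers reads DNA, often within transposable elements. They arose by tandem duplication and sit in clusters, and the whole finger array is usually encoded by a single long last coding exon. Neighbouring members therefore share similar coding sequence. The authors kept uniquely mapped reads, and the part of this step in the results below was not tested.

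The replicate 1 list held 145715 peaks, of which 74237 were sense peaks, and the replicate 2 list held 137934, of which 77288 were sense peaks. Peak height is given in tags, without adjustment for depth, and how many reads lie behind each list is unknown. The lists began at heights of 4 tags (replicate 1) and 5 tags (replicate 2). Of 10 marker genes of T-lineage cells, 8 had a sense peak in both lists and none lacked one in both. Of 7 markers of B cells, monocytes, red cells and liver, 0 had a peak in both lists and 5 had none. Intervals below are 95% Wilson intervals, which cover counting error only, as PCR copies of a read are not separate molecules.

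Peaks that recurred at one place on a ZNF gene were few and low. In all, 10 sense peaks of members in replicate 1 coincided, strand included, with one in replicate 2, and they lay in 7 genes: ZNF146, ZNF121, ZNF460, ZNF444, ZNF101, ZNF266 and ZNF317. The matching number of other genes with a shared peak was not counted. These counts cover identifiers that could be named and leave out peaks that only touch. On ZNF431, the replicate 1 peak at chr19:21167550-21167600 touched the replicate 2 peak at chr19:21167600-21167650. A further 3 shared peaks belonged to unnamed identifiers that lay inside ZNF581 or ZNF254, and they were not counted here. Those inside ZNF581 could add to the 10 peaks and 7 genes. Inside ZNF581 lay a 5′ UTR peak at chr19:55642450-55642500 with 7 tags and 8 tags. A CDS peak there, at chr19:55644550-55644600 and under a different identifier, had 4 tags and 9 tags. The 5′ UTR peak also lay inside ZNF580, another member, so these peaks may belong to different genes. Inside ZNF254 it was a noncoding exon peak at chr19:24049400-24049450 with 5 tags and 8 tags. ZNF254 had a named identifier of its own, so under the rule used this peak does not count for it. By their region in replicate 1, 5 of the 10 named peaks lay in a 5′ UTR, 3 in CDS, 1 in a noncoding exon and 1 in an intron. ZNF101 is the member for which the start-site sequence reaches a shared peak. Its 5′ UTR peak reached 4 tags in replicate 1 and 5 in replicate 2. The stretch chr19:19668859-19668888 (GRCh38, plus strand), taken from the RefSeq start-site windows of GRCh38.p14, lies in that peak. It is shown beside the stretch of ZNF561 at chr19:9621183-9621200 (minus strand), which lies in a 5′ UTR peak of 4 tags found in replicate 1 alone. Capitals mark GGAN, searched on the transcribed strand only.
ZNF101: tcctcggGGAGcccctggtgccccGGATac
ZNF561: ggtttcgcctttatggtg
The ZNF101 stretch of 30 bases held 2 matches and the ZNF561 stretch of 18 bases 0, so these counts cannot be compared directly. Start-site windows were matched by symbol for 210 of the 241 members. GGAN stood in the last 30 bases of 45.7% of these 210 windows and of 49.7% of all 1510 windows of chromosome 19, so a match is common and is given as a description of the letters.

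Ranked by the lower of both heights, the highest shared peak of a named member was in the 5′ UTR of ZNF146, which encodes a protein made almost wholly of zinc fingers, without a KRAB domain. It stood at chr19:36235650-36235700, with 6 tags in replicate 1 and 11 in replicate 2. ZNF121 had a shared 5′ UTR peak at chr19:9569000-9569050, of 8 tags in replicate 1 and 6 in replicate 2. The 8 tags of ZNF121 were the greatest height of any member in replicate 1. ZNF266 carried a shared peak in its 5′ UTR and another in its CDS. Its 5′ UTR peak at chr19:9435100-9435150 had 4 tags and 10 tags, and its CDS peak at chr19:9415650-9415700 had 4 tags and 6.5 tags, in replicates 1 and 2. ZNF266 also held the highest member peak of either list, 12 tags in replicate 2 at chr19:9417800-9417850, which was not overlapped in replicate 1.

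ZNF460 had 3 CDS peaks in replicate 1, as did ZNF526, and 4 in replicate 2, the most of any named member there. Its shared peak at chr19:57284550-57284600 lay wholly in CDS and had 5 tags and 9 tags. A second shared peak, at chr19:57290650-57290700, had 4 tags and 8.5 tags and crossed from intron into CDS, so that its main region was intron in replicate 1 and CDS in the longer peak of replicate 2. ZNF444, which encodes a SCAN domain protein, had a shared noncoding exon peak at chr19:56155800-56155850 with 5 tags and 7 tags. ZNF101 had a shared CDS peak at chr19:19677850-19677900 with 5 tags in each replicate. ZNF317 had a shared 5′ UTR peak at chr19:9155900-9155950 with 4 tags and 5 tags.

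A sense peak was found on 104 members in replicate 1 (43.2%), where 49.3% of all 1447 genes had one, and on 99 members in replicate 2 (41.1%), where 47.7% had one. The mean share of members was 42.1% ± 1.47 (SD, n = 2). In both replicates it was found on 62 members, 25.7% (20.6 to 31.6), where 37.4% of all genes had one. Among the other genes the counts were 609 (50.5%) and 591 (49.0%) of 1206, and 479 genes, 39.7% (37.0 to 42.5), had a peak in both. The difference between members and other genes was -7.34 percentage points in replicate 1 and -7.93 in replicate 2. In either replicate the shares were close, 58.5% (52.2 to 64.5) of members and 59.8% (57.0 to 62.5) of other genes, with 59.6% over all genes. With peaks of at least 5 tags, the lowest height both lists hold, the share of members with a peak in both became 8.71% and that of other genes 29.0%. A gene with less RNA and a gene bound less often cannot be told apart from these lists. With 2 libraries, an exact two-sided sign-flip test of any difference given here cannot go below p = 0.5, so differences are described by their values in each replicate.

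Exonic peaks set the members further apart. A peak in CDS, UTR or noncoding exon was found on 41 members in replicate 1 (17.0%, with 31.9% over all genes) and on 46 in replicate 2 (19.1%, with 33.6% over all genes). In either replicate it was found on 70 members (29.0%), where 40.4% of all genes had one. In both replicates it was found on 17 members, 7.05% (4.45 to 11), where 25.2% of all genes had one, and on 347 other genes, 28.8% (26.3 to 31.4). A CDS peak was found on 23 members in replicate 1 and 28 in replicate 2, where 25.2% and 28.4% of all genes had one, and on 43 members in either, where 33% of all genes had one. It was found in both replicates on 8 members, 3.32% (1.69 to 6.41), where 20.6% of all genes had one, and on 290 other genes, 24.0% (21.7 to 26.5). These 8 members were ZNF317, ZNF460, ZNF266, ZNF101, ZNF543, ZNF526, ZNF562 and ZNF431. A peak of at least 10 tags was found in both replicates on 0 of 241 members, which allows a share of up to 1.57%, where 7.19% of all genes had one. Among the other genes 104 had one, 8.62% (7.17 to 10.3). Replicate 1 had 0 such members, where 7.39% of all genes reached 10 tags. Replicate 2 had 2 (0.830%), ZNF146 with 1 peak and ZNF266 with 3, where 14.4% of all genes reached 10 tags, and 14.7% did so in either replicate.

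The number of peaks per gene was also low. Members made up 16.7% of the genes and 21.6% of their summed interval length, and held 5.81% of the sense peaks in replicate 1 and 4.12% in replicate 2. This was 210 peaks in replicate 1 and 184 in replicate 2, against 3405 and 4286 on the other genes. Per 100 kb of gene interval, members had 2.98 and 2.61 peaks and other genes 13.3 and 16.8. A member with a peak had a median of 1.5 peaks in replicate 1 and 1 in replicate 2, against 3 and 4 for other genes. A single peak was all that 50% of such members had in replicate 1 and 53.5% in replicate 2, against 33.0% and 26.7% of other genes.

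ZNF536, a gene best known from the nervous system, had the most sense peaks of any member, 10 in replicate 1 and 8 in replicate 2. All of them had intron as their main region, though the replicate 1 peak at chr19:30372350-30372400 lay partly in a 5′ UTR. None was overlapped by the other replicate, and the highest peaks of ZNF536 were 5 tags and 6 tags. Its interval of 487995 nt gave a mean of 1.84 peaks per 100 kb. ZNF460 stood at the other end, with 4 and 6 peaks in 14088 nt, a mean of 35.5 per 100 kb. ZNF444 had 5 and 7 peaks, ZNF317 had 5 in each replicate, and ZNF568 had 5 and 4. ZNF266 had 3 and 6 peaks and ZNF101 had 5 and 3. Of the 20 members with the most peaks, 3 carried intron peaks alone in both replicates: ZNF536, ZNF43 and ZNF420.

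Some members differed widely between the libraries. ZNF577 had 7 peaks in replicate 1 and 1 in replicate 2, ZNF507 had 5 and 1, and ZNF526 had 4 and 1. ZNF543 went the other way, with 2 and 4 peaks. Across the 241 members the peak counts of the replicates had a Spearman rho of 0.37, and across the 1206 other genes a rho of 0.79. This is a description across genes, which share their libraries, and many counts are 0 or 1.

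Of 17 members with a studied role, 10 had a sense peak in replicate 1 (58.8%), 14 in replicate 2 (82.4%) and 9 in both (52.9%), where 49.3%, 47.7% and 37.4% of all genes had one. The list was chosen with results of these data known, so nothing is read from these shares. ZNF649 and ZNF675 had none. ZNF91 and ZNF93, repressors of SVA and LINE-1 retrotransposons, had 1 and 2 peaks and 2 and 1 peaks, of at most 5 tags. ZNF274, which recruits the histone methyltransferase SETDB1, had 0 peaks in replicate 1 and 2 intron peaks in replicate 2. ZNF331, an imprinted gene, had 2 and 1 peaks, all in introns. ZNF431 had 1 and 3 peaks and ZNF264 had 0 and 3. ZNF146 and ZNF444 were the members of this list with a shared peak.

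Gene length went with the presence of a peak. The median interval, introns included, was 23145 nt for members and 12778 nt for other genes. Transcript length was not measured, and the part of length in the difference between members and other genes was not tested. Among genes under 10000 nt, 1 of 28 members (3.57%) and 21.9% of 470 other genes had a peak in both replicates. From 10000 to 20000 nt it was 10 of 70 members (14.3%) and 39.3% of 336 other genes. From 20000 to 40000 nt it was 31 of 102 members (30.4%) and 54.5% of 242 other genes. At 40000 nt and above it was 20 of 41 members (48.8%) and 70.9% of 158 other genes. Members were lower in each of the 4 length classes.

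Most member peaks lay in introns. Replicate 1 had an intron share of 67.1% (60.5 to 73.1) and replicate 2 one of 60.3% (53.1 to 67.1), which is 63.7% ± 4.82 (SD, n = 2). For other genes it was 40.8% and 37.1%, or 39.0% ± 2.63 (SD, n = 2). The CDS share of member peaks was 13.3% (9.39 to 18.6) and 21.7% (16.4 to 28.2), which is 17.5% ± 5.94 (SD, n = 2), against 44.7% ± 2.58 (SD, n = 2) for other genes. The CDS difference, -29.5 percentage points in replicate 1 and -24.8 in replicate 2, was larger than the spread between replicates. Of the 141 members with a peak, 71 had intron peaks alone and 70 had an exonic peak in either replicate. An exonic peak was found on 514 of the 721 other genes with a peak, and on 584 of all 862 genes with a peak. Members had fewer peaks per gene, which makes intron peaks alone easier to meet. When only identifiers with a CDS or UTR peak were kept, which favours those regions, the member shares became 30.04% in CDS and 37.6% in introns, against a CDS share of 47.7% for other genes.

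The UTR shares differed less. Member peaks lay in 5′ UTRs in 7.62% (4.74 to 12) and 7.07% (4.18 to 11.7) of cases, against 4.46% (3.82 to 5.21) and 4.53% (3.94 to 5.19) for other genes, and these intervals overlapped. For 3′ UTRs, which IGF2BP2 is known to bind, the shares were 9.05% and 8.70% for members and 6.49% and 7.16% for other genes. Peaks that crossed a boundary of CDS and intron were 7.14% and 8.15% of member peaks, against 32.4% and 37.8% for other genes.

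Within the gene, member CDS peaks lay towards the 3′ end, at a median of 70.0% of the interval in replicate 1 and 67.5% in replicate 2, against 61.5% and 63.3% for other genes. The final 25% of the interval held 42.9% and 35.9% of them, against 33.2% and 35.9% for other genes, so on this measure the replicate 2 shares were alike. The 5′ UTR peaks of members lay further into the gene than those of other genes. Their median was at 29.4% of the interval in replicate 1 (15 peaks) and 43.0% in replicate 2 (13 peaks), against 2.38% and 1.58%. Some members thus had 5′ UTR peaks far from the start of the annotated gene.

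Member peaks mostly stood at the lowest height of the list. In replicate 1, 165 of 210 (78.6%) had 4 tags, and in replicate 2, 131 of 184 (71.2%) had 5 tags, against 46.6% and 35.7% for other genes. Peaks of at least 6 tags were 2.86% and 28.3% of member peaks, against 31.8% and 62.9%. The greatest height was 8 tags and 12 tags on members, against 44 tags and 90 tags on other genes. At 8 tags or more, replicate 1 held 1 member peak, on ZNF121. Replicate 2 held 9, on ZNF266 (3), ZNF460 (2), ZNF146, ZNF160, ZNF543 and ZNF574.

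The same positions were seldom found in both libraries. Of the member peaks, 10 of 210 in replicate 1 (4.76%, 2.61 to 8.54) and 10 of 184 in replicate 2 (5.43%, 2.98 to 9.71) coincided with one from the other library. For other genes it was 1330 of 3405 (39.1%, 37.4 to 40.7) and 1315 of 4286 (30.7%, 29.3 to 32.1). Of the 62 members with a peak in both replicates, 55 had no overlapped peak. The same count was not made for other genes. Members with a peak had a median of 1.5 and 1 peaks, against 3 and 4 for other genes, so this count is not read as particular to members.

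Overlap depended on the region. Of the replicate 1 peaks of members, 5 of 16 in 5′ UTRs (31.3%, 14.2 to 55.6), 3 of 28 in CDS (10.7%, 3.71 to 27.2) and 1 of 141 in introns (0.709%, 0.125 to 3.91) were overlapped. Among other genes the shares were 51.3% (43.4 to 59.1) in 5′ UTRs, 57.3% (54.8 to 59.8) in CDS and 21.0% (18.9 to 23.2) in introns. Members were lower in CDS and in introns, while the 5′ UTR intervals overlapped. In 3′ UTRs 0 of 19 member peaks were overlapped, with an upper limit of 16.8%, against 28.1% of those of other genes.

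Peak height moved with the overlap as well. At 4 tags, 5 of 165 member peaks (3.03%, 1.30 to 6.90) were overlapped, against 20.1% (18.2 to 22.2) of those of other genes. Above 4 tags it was 5 of 45 (11.1%, 4.84 to 23.5), against 55.6% (53.3 to 57.8). For intron peaks of 4 tags it was 1 of 113 (0.885%), against 10.0% (8.16 to 12.2). For CDS peaks of 4 tags it was 1 of 20 (5.00%, 0.888 to 23.6), against 39.7% (35.5 to 44.2). In 5′ UTRs at the lowest height it was 3 of 11 in replicate 1 (27.3%, 9.75 to 56.6), against 33.3% (22.5 to 46.3), and 2 of 5 in replicate 2 (40%, 11.8 to 76.9), against 15.9% (8.86 to 26.8). Among replicate 1 peaks of 4 tags members were thus lower in CDS and introns, and the 5′ UTR intervals overlapped.

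The members lay in 10 clusters, taken as runs of at least 5 members whose neighbours start within 500000 nt, which held 229 of the 241. A peak in both replicates was found on 58 of these (25.3%, 20.1 to 31.3) and on 4 of the 12 members outside (33.3%, 13.8 to 60.9), and these intervals overlapped. The share varied along the chromosome. In the cluster from ZNF101 to ZNF254, which holds 37 members including ZNF43, ZNF91 and ZNF93, 16 members (43.2%, 28.7 to 59.1) had a peak in both, near the 37.4% of all genes. Near it too were the clusters from ZNF554 to ZNF77 (2 of 5, 40%) and ZNF414 to ZNF846 (5 of 13, 38.5%). So were those from ZNF653 to ZNF791 (9 of 25, 36%) and ZNF565 to ZNF573 (10 of 25, 40%). In this order their intervals were 11.8 to 76.9, 17.7 to 64.5, 20.2 to 55.5 and 23.4 to 59.3. Gene length, which went with the presence of a peak, was not taken into account here. In the cluster from ZNF575 to ZNF180 it was 2 of 23 (8.70%, 2.42 to 26.8). In the clusters from ZNF175 to ZNF331 and from ZNF264 to ZNF446 it was 6 of 39 (15.4%) and 6 of 41 (14.6%), from ZNF628 to ZNF835 it was 2 of 16 (12.5%), and from ZNF302 to ZNF792 it was 0 of 5, with an upper limit of 43.4%. The cluster from ZNF414 to ZNF846, which holds ZNF121, ZNF266 and ZNF317, had 4 of the 10 overlapped peaks. It held 28 of the 210 member peaks of replicate 1. The cluster was picked after these values were seen, and nothing is read from such small counts.

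Genes without a zinc finger symbol inside the same clusters also had few peaks. Of 75 such genes, 12 (16%, 9.40 to 25.9) had a peak in both replicates. Their peaks, 76 in replicate 1 and 87 in replicate 2, were overlapped in 25% (16.6 to 35.8) and 21.8% (14.5 to 31.6) of cases, above the 5.35% (2.93 to 9.56) and 5.88% (3.23 to 10.5) of members in clusters. Their CDS shares were 27.6% and 35.6%, against 12.8% and 21.8%. Other zinc finger genes of chromosome 19, with symbols such as ZFP, ZSCAN or ZBTB, had a peak in both in 11 of 26 cases (42.3%, 25.5 to 61.1), above the members' 25.7% with overlapping intervals. Their peaks, 38 and 45, were overlapped in 21.1% (11.1 to 36.3) and 15.6% (7.75 to 28.8) of cases.

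Antisense peaks were also fewer on members than their share of the genes, but less so than sense peaks. Members, 16.7% of the genes, held 13.5% of the antisense peaks in replicate 1 and 12.04% in replicate 2. They had 86 antisense peaks in replicate 1 and 62 in replicate 2, or 2.44 and 2.97 sense peaks for each antisense peak. For other genes the ratio was 6.20 and 9.46. An antisense peak in either replicate stood on 78 members (32.4%, 26.8 to 38.5), 18 of which had no sense peak, and on 503 other genes (41.7%, 39.0 to 44.5), with 40.2% over all genes.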

How the data were processed

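Peak lists of the 2 IGF2BP2_IP libraries were analysed. According to the methods, the authors aligned read pairs with TopHat2, kept uniquely mapped reads, called peaks in each library on its own by the ABLIRC strategy, against simulated reads on each gene, and discarded those also called in the inputs. The submitters' processing notes name GRCh38. Height is the deposited signal in tags. The deposited p-value served as a filter alone. Region shares and gene identifiers are the authors' own. Positions fall on steps of 50 nt and were read as half-open intervals, although the deposited lengths count both end positions. Peaks that only touch were therefore not counted as overlapped.

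Identifiers were tied to symbols through the coordinates of RefSeq genes (GRCh38.p14). One that had CDS or UTR peaks was given the only protein-coding gene holding at least 80% of them, with a margin of 1000 nt, and the rest the single gene around all their peaks. Of 1154 chromosome 19 identifiers with a sense peak, 951 were named. All sense peaks of a named identifier were counted for its gene, so some lie outside the RefSeq interval. Examples are the only peak of ZNF490 in replicate 2 and the only peak of ZNF549 in replicate 1. Of the 141 members with a peak, 69 were named through CDS or UTR peaks and 72 through intron or noncoding exon peaks alone, and 9 members without a named peak were candidates of an unnamed identifier. Read-through genes were left out as candidates only, so peaks of a read-through identifier could be counted for 1 of its parts. The replicate 1 peak at chr19:9354550-9354600 was counted for ZNF177, although it lies outside that interval.

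A peak was counted once, in the region that covers most of it. Overlap needed at least 1 bp on the same strand. Members and lists were chosen with earlier results of these data known. The genes named were the 20 members with the most sense peaks, by the lower replicate count, those with the 10 highest overlapped peaks, 17 members of known role, and members with 10 tags in both replicates. Others named in counts were chosen after their values were seen. The functions were tested on simulated data, where all 500 genes were named rightly. Python 3.11.15, numpy 2.4.6, pandas 2.3.3, scipy 1.17.1 and matplotlib 3.10.9 were used. The alternatives tried were other height, p-value, region, overlap and naming rules, other comparison genes, and each replicate left out.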

Additional observations from a re-analysis of the deposited data

How the results depend on the processing

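Of 89 recomputed values, 50 stayed within the replicate spread or interval and 39 moved. The share of members with a sense peak in both replicates, 25.7%, became 8.71% with peaks of at least 5 tags, 0% with at least 10 tags, 0.830% with a p-value under 0.001 and 7.05% with exonic peaks, where other genes became 29.0%, 8.62%, 18.7% and 28.8%. Under the same height and p-value limits the CDS share of other genes became 50.1%, 67.2% and 58.0%, and their overlap 55.7%, 64.5% and 49.3%. With at least 5 tags and with a p-value under 0.001, the 3′ UTR share of member peaks became 5.46% and 0% and their overlap 11.1% and 16.7%, and the intron share became 47.7% under the p-value limit, which left 6 member peaks in replicate 1 and 22 in replicate 2. Comparison genes of the members' length range gave 46.1% with a peak in both, a CDS share of 47.9% and an overlap of 42.0%. Weighting regions by length gave other genes a CDS share of 41.6%, replicate 2 against replicate 1 gave them an overlap of 30.7%, and position alone gave members a 3′ UTR share of 8.33%.

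Further settings were chosen after seeing the data. With identifiers that have a CDS or UTR peak only, members had a peak in both in 13.3% of cases, a CDS share of 30.04%, a 3′ UTR share of 15.5%, an intron share of 37.6%, an overlap of 8.93% and a median of 2 peaks, and other genes 34.3%, a CDS share of 47.7% and an overlap of 42.2%. This setting selects on the region measured, so its region shares had to move this way. Counting peaks that touch gave other genes an overlap of 45.0% and members one of 5.24%, which stayed within its interval. Leaving out candidates of unnamed identifiers moved no value beyond these limits.

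With 1 replicate left out, members with a peak ranged from 41.1% to 43.2% and other genes from 49.0% to 50.5%. The CDS share of members ranged from 13.3% to 21.7%, their 3′ UTR share from 8.70% to 9.05%, their intron share from 60.3% to 67.1%, their share of peaks of at least 10 tags from 0% to 2.17%, their median from 1 to 1.5 peaks, and the CDS share of other genes from 42.9% to 46.5%. Overlap has no value with 1 replicate. A minimum of 10 tags left 0 member peaks in replicate 1 and gave no region share, overlap or median for members. Protein features were not run. No paired analysis was possible because a single group of samples, the IGF2BP2_IP libraries, was used here, and members and other genes were already set side by side within each library. Depth is unknown, so a member without a peak may lie below what these libraries detect.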
